A study of Mus musculus with 2 samples.

Results

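Alveolar type 1 (AT1) cells are the flat epithelial cells that line most of the gas-exchange surface of the lung. They lie on a basement membrane shared with the capillary endothelium, move water and ions across the alveolar wall, and send growth factors such as VEGFA to the capillaries beneath them. They can be replaced from AT2 cells, the surfactant-making cells marked by *Sftpc*, and are recognised by *Ager*, *Aqp5*, *Hopx* and *Pdpn*. Their thin shape makes them hard to dissociate whole.

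Lung cells were profiled by droplet-based single-cell RNA-seq in C57/B6 mice aged 2 to 4 months, wild type in the study's description, with 1 library from mice kept in normoxia and 1 from mice kept for 3 weeks in hypoxia (10% inspired O2). The study describes the hypoxia cells as coming from several animals, the labels give no number for either library, and no cell is tied to an animal. Both suspensions had been depleted with CD45 beads and then with CD326 (Epcam) beads, and the second depletion is directed at epithelial cells, so the number of AT1 cells here is not their number in the lung. Of 3032 cell barcodes, 2037 had 200 to 4000 detected genes and at most 5% mitochondrial transcripts and were kept, 1348 from normoxia (5173361 UMIs, unique molecules counted) and 689 from hypoxia (2294966 UMIs).

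The cells described here were chosen by their own UMI counts of a few genes. They were the kept cells with at least 1 UMI of 2 or more of the 5 AT1 markers *Ager*, *Rtkn2*, *Akap5*, *Aqp5* and *Cldn18*, and no more than 20 UMIs of *Sftpc*. There were 104 of them among the 2037. The normoxia library held 84 of 1348 cells (6.23%, exact binomial 95% interval 5.00 to 7.66) and the hypoxia library 20 of 689 (2.90%, 1.78 to 4.45). They are called marker-positive cells below, because the name AT1 cell was borne out for fewer than this number. Intervals in the text cover counting error only, and with 1 library per condition no difference between normoxia and hypoxia could be tested against the spread between animals.

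The filters removed a large part of the cells that met the marker rule. Before them, 172 normoxia and 27 hypoxia barcodes met it, and 51.2% and 25.9% of these were removed, against 39.4% and 14.8% of all barcodes in the same libraries. In normoxia 74 exceeded the mitochondrial limit and 16 the limit of 4000 genes, with 2 exceeding both, and in hypoxia all 7 exceeded the mitochondrial limit. Only 1 barcode occurred in both libraries, and no marker-positive cell carried it.

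The 5 rule markers stand at separate places in the genome (mouse build GRCm38, GENCODE vM21 gene spans). *Ager*, the receptor for advanced glycation end products, lies at chr17:34597862-34600936 on the plus strand, and *Rtkn2* at chr10:67979570-68059740 on the plus strand. *Akap5*, a kinase anchoring protein, lies at chr12:76324891-76334153 (plus), *Aqp5*, a water channel, at chr15:99590782-99594829 (plus), and *Cldn18*, a tight-junction protein, at chr9:99689461-99717267 (minus).

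The bases before 2 AT1 gene starts are shown because NKX2-1, the lung lineage factor, and TEAD factors, the partners of YAP, are known regulators of AT1 genes. The letters searched were CAAGTG for NKX2-1 and GGAATG for TEAD, on both strands, in the 250 bases before each RefSeq start (GRCm38.p6). CAAGTG or its reverse complement was present before 13.2% of 27025 genes, before 1 of the 4 rule markers matched in the promoter table (*Cldn18*) and before 4 of 26 of the other AT1 genes described below, *Scnn1g* among them. GGAATG was present before 14.4% of all genes, 0 of the 4 rule markers and 2 of the 26. With so few genes these shares cannot be set apart from those of all genes, and a match is only a run of letters. The first *Cldn18* start, not shown, had no match to either run of letters. Capitals mark CAAGTG, or CACTTG where it lies on the other strand.
Cldn18 second start, chr9:99710064-99710313, minus strand: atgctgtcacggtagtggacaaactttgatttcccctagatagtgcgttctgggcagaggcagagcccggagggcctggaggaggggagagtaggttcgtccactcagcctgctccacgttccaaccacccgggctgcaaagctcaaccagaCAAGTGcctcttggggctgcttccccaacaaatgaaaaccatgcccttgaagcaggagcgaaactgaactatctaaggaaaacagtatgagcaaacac
Scnn1g, chr7:121734229-121734478, plus strand: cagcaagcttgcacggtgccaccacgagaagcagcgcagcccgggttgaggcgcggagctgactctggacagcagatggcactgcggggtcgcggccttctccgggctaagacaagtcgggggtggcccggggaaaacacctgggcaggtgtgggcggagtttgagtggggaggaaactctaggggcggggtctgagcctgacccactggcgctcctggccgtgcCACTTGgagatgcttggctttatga

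Most marker-positive cells did not carry an AT1 transcriptome alone. Cells outside the rule had been sorted into gates by their own markers, with the endothelial gate asking for at least 3 of *Cdh5*, *Pecam1*, *Cldn5* and *Egfl7*, and the fibroblast gate for at least 4 of 7 fibroblast genes. When the same gates were laid over the 104 cells, 55 (52.9%) passed the endothelial gate as well, and 42 of these had all 4 endothelial genes. A further 6 passed the fibroblast gate alone, 4 of the 55 passed both gates, and none had 2 or more of 5 leukocyte genes. The remaining 43 cells, 35 from normoxia and 8 from hypoxia, passed no other gate. These are called AT1-only cells and the 55 AT1/endothelial cells, as names of gates and not of cell types. AT1-only means too few UMIs of other markers to pass another gate, and RNA of other lineages was present in this class. The fibroblast list used below stood at 2041 CPM in the AT1-only cells and 876 CPM in the AT1/endothelial cells. The endothelial list used below stood at 3790 and 25499 CPM in the same order.

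AT1 transcripts were highest in the AT1-only cells and endothelial transcripts in the cells that passed the endothelial gate. The second of these was largely set by the gate, since its 4 genes belong to the endothelial list. A list of 35 other AT1 genes, none used by the rule, reached 34002 UMIs per 1000000 (CPM) in the AT1-only cells, 7053 CPM in the AT1/endothelial cells and 3772 CPM in the 1372 endothelial-gate cells that are not marker-positive. A list of 24 endothelial genes reached 3790, 25499 and 31052 CPM in the same order. The AT1/endothelial cells thus carried 82.1% (80.3 to 84.0) of the endothelial-gate level. They had a median of 5653 UMIs against 1037 in the AT1-only cells and 3583 in the endothelial gate. A gate asks for UMIs of several genes, so a shallow cell can fail it by detection alone, and this gap in depth was set in part by the gate. The other kept cells that passed no gate had a median of 789 UMIs. As a share of each cell's UMIs, the 35 genes had a median of 1.77% in the 35 normoxia AT1-only cells, 0.543% in the 44 normoxia AT1/endothelial cells and 0.256% in the normoxia endothelial gate. In hypoxia these medians were 2.38% in 8 cells, 0.387% in 11 cells and 0.254%. Of the AT1-only cells 30 of 43 lay above the 95th percentile of the endothelial gate, and of the AT1/endothelial cells 15 of 55 did, so the classes overlapped.

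**Figure D1:**
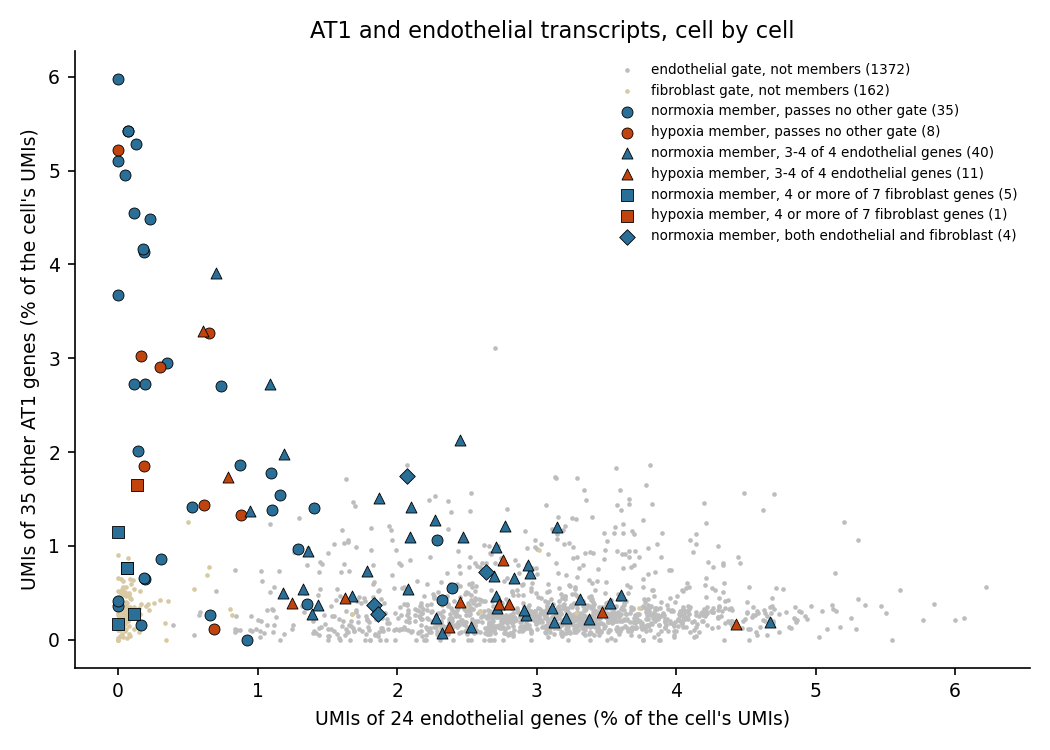
Each large symbol is 1 marker-positive cell (a member), with its UMIs of 24 endothelial genes (x axis, % of the cell's UMIs) and of 35 other AT1 genes (y axis, %), blue for normoxia and orange for hypoxia, and small points are cells of the endothelial and fibroblast gates. Circles, the 43 cells passing no other gate, climb the left edge up to 5.98%, while most triangles, the cells with 3 or 4 of 4 endothelial genes, lie within the grey endothelial cloud.

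AT1 transcripts were higher with 3 or more rule markers than with 2. The 52 cells with exactly 2 markers, just inside the rule, had 4993 CPM of the other AT1 genes, and the 205 cells with 1 marker, just outside, had 4288 CPM. With 3, 4 and 5 markers the values were 11958 CPM in 29 cells, 18027 CPM in 15 cells and 34303 CPM in 8 cells. Endothelial transcripts stood at 23000 CPM with 2 markers, 18183 CPM with 3, 17779 CPM with 4 and 10005 CPM with 5, against 22425 CPM just outside. Among the cells with 5 markers are 3 deep normoxia cells, described further on, which held 1681 of the 2280 AT1 UMIs and 38 of the 665 endothelial UMIs. The other 5 cells had 18348 CPM of AT1 and 19205 CPM of endothelial genes, close to the cells with 4 markers. Of the cells with 2 markers, 34 passed the endothelial gate. Another 8 kept cells had 2 or more markers but over 20 *Sftpc* UMIs and were left out by the rule.

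**Figure D2:**
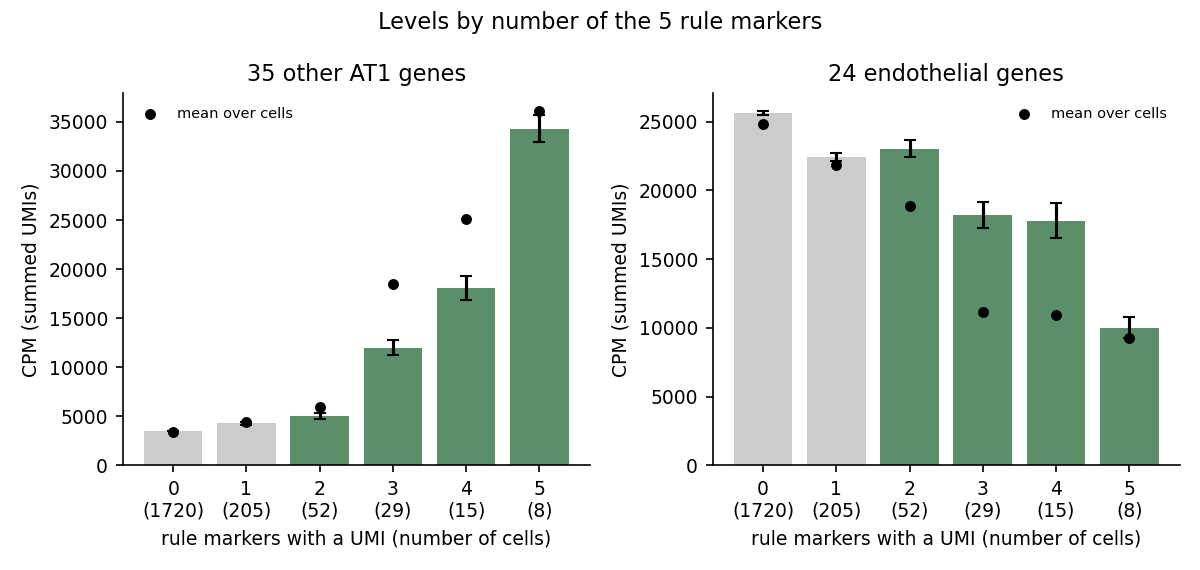
Bars give CPM from summed UMIs by the number of rule markers with a UMI (x axis, number of cells in brackets), grey outside the rule and green inside, with exact Poisson 95% intervals, and black points give the mean over cells. AT1 transcripts (left) lie at 4288 CPM with 1 marker, 4993 with 2 and 34303 with 5, and endothelial transcripts (right) at 22425, 23000 and 10005. Without the 3 deep cells the values with 5 markers were 18348 and 19205 CPM.

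*Malat1*, a long RNA retained in the nucleus, also differed between these classes. Fewer than 1% of UMIs were *Malat1* in 40 of the 43 AT1-only cells (93%, exact interval 80.9 to 98.5), in 28 of the 55 AT1/endothelial cells (50.9%, 37.1 to 64.6) and in 400 of the 1372 endothelial-gate cells (29.2%, 26.8 to 31.6). The low cells were also shallower, with a median of 935 UMIs in the AT1-only class and 1777.5 in the endothelial gate. The part of depth in these shares was not tested.

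The 3 AT1-only cells with at least 1% *Malat1*, the 3 deep cells, were all from normoxia and were the deepest of their class. They held 10574, 11500 and 11746 UMIs, of which 16.0%, 9.50% and 9.48% were *Malat1*, and each had all 5 rule markers. The 35 other AT1 genes made 4.48%, 4.96% and 5.42% of their UMIs, and the 24 endothelial genes gave 24, 6 and 8 UMIs, together 1124 CPM. They supplied 1681 of the 2799 AT1 UMIs of the 43 AT1-only cells, and without them the class stood at 23052 CPM of AT1 genes and 5650 CPM of endothelial genes. The next deepest AT1-only cell, with 3881 UMIs and no *Malat1* UMI, had 5.28% AT1 transcripts. No AT1-only cell of hypoxia exceeded 2649 UMIs or 0.114% *Malat1*, against a median of 1.26% in the hypoxia endothelial gate and 4.46% in the normoxia endothelial gate.

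Among the marker-positive cells, epithelial identity was clearest in the AT1-only class. A list of 18 genes shared by epithelia reached 3268 CPM there (1918 CPM without the 3 deep cells), 295 CPM in the AT1/endothelial cells and 22.8 CPM in the endothelial gate. It was higher, at 6274 CPM, in the 8 kept cells that the rule left out for over 20 *Sftpc* UMIs. In the marker-positive cells its most abundant gene was *Krt7*, a keratin of simple epithelia, with 98 UMIs in normoxia and 20 in hypoxia. *Cldn3*, *Cldn4*, *Esrp1*, *Elf3* and *Tmem30b* were at 0 in every marker-positive cell. *Epcam*, the target of the depleting beads, gave 12 UMIs in normoxia and 1 in hypoxia. AT2 transcripts were limited by the rule, which left out cells with over 20 *Sftpc* UMIs, and stood at 195 CPM over 16 genes against 53142 CPM in the 11 cells of the AT2 gate, and *Lamp3*, *Lyz1* and *Fasn* were at 0. A leukocyte list of 12 genes gave 22 UMIs, of which *Lyz2* made 17, and *Coro1a*, *Cd52*, *Tyrobp*, *Cd79a* and *Cd3e* were at 0. A fibroblast list of 10 genes stood at 2505 CPM against 17313 CPM in the fibroblast gate, with *Inmt* the most abundant at 454 of 1051 UMIs, and at 2041 CPM in the AT1-only cells, where *Dcn* was at 0. Mesothelial genes gave 26 UMIs in 10 normoxia cells and none in hypoxia, with *Upk3b* and *Wt1* at 0.

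Compared with the 1933 other kept cells over both libraries, the 104 cells were set apart by AT1 genes. Among 2726 genes with at least 30 UMIs in the marker-positive cells, 4.07% were at least 2-fold higher in them and 0.404% at most 0.5-fold, and the median ratio was 1.04. Of the 35 other AT1 genes 24 passed this minimum, 22 of them at least 2-fold higher, and their median ratio was 16.7. The minimum counts UMIs in the marker-positive cells and so favours genes that are high there. *Clic5* (1.69) and *Vegfa* (1.72) passed it below 2-fold, and 11 genes, *Cldn3*, *Aqp4* and *Tmem213* at 0 among them, did not pass it. Without the 3 deep cells 17 of the 35 passed it, 14 of them at least 2-fold higher with a median ratio of 4.43, where 2.79% of 2510 genes were at least 2-fold higher and 0.478% at most 0.5-fold. Ratios of single genes are given for all 104 cells, with that for the other 101 added where it was more than 1.5 times smaller. Of the 20 genes with the highest lower bound, 5 are the rule markers, whose ratio the rule set (*Rtkn2* 254, or 95.4 without the 3 deep cells, *Akap5* 104 or 68.4, *Ager* 89.8 or 47.7, *Aqp5* 43.6 or 12.9, *Cldn18* 35.7 or 23.3).

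*Hopx*, the homeodomain-only protein found in most AT1 cells, was the most abundant of the 35. It gave 983 UMIs (2834 CPM) in the normoxia marker-positive cells against 453 CPM in the other normoxia cells, and 170 UMIs (2341 CPM) against 494 CPM in hypoxia. The 6.26-fold (5.80 to 6.75) and 4.74-fold (4.01 to 5.58) differences exceeded counting error in both libraries. The 3 deep cells gave 411 of the 983 UMIs, and without them the ratio over both libraries went from 5.90 to 4.13 (3.81 to 4.48). *Hopx* was not confined to these cells, since the endothelial gate held 548 CPM. After thinning every cell to 1000 UMIs, 100% of 16 normoxia AT1-only cells had a *Hopx* UMI, as had 31.8% of 804 normoxia endothelial-gate cells, with 19 and 55 shallower cells left out. In 140 normoxia fibroblast-gate cells, a class of another lineage, the share was 13.6%. Median depths before thinning were 1642, 3911 and 6291.5 UMIs.

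Genes of ion and water transport were among those with the highest ratios. *Scnn1g*, a subunit of the epithelial sodium channel, gave 32 UMIs in the marker-positive cells and 3 in all other kept cells, a ratio of 179 with an interval of 56.1 to 915 (67.0, 17.7 to 374, without the 3 deep cells). All 32 were in normoxia, where the 84 cells held 346888 UMIs, while the 20 hypoxia cells held 72631. *Scnn1a*, the channel's alpha subunit, was 35.6-fold higher (19.9 without the deep cells) and *Scnn1b*, with 28 UMIs, 94.1-fold (18.3 from the 5 UMIs left without them). The zinc transporter *Slc39a8* was 21.1-fold (12.2) and the chloride channel family member *Clic3* 23.7-fold (14.0) higher. *Aqp1*, the water channel of endothelium, went the other way at 0.74-fold. Of the 12 genes of this list 6 passed the minimum and 3 were at least 2-fold higher, beside 4.07% of all genes tested.

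Several genes of signals directed at neighbouring cells were also higher. *Igfbp2*, a binding protein of insulin-like growth factors, gave 126 UMIs (363 CPM) in normoxia against 3.11 CPM in the other cells and 12 UMIs (165 CPM) against 2.70 CPM in hypoxia. Its ratio over both libraries was 110 (69.5 to 184). *Sema3e*, a guidance ligand of endothelium, was 44.5-fold higher (18.3 without the 3 deep cells), the neurotrophin *Bdnf* 65.1-fold (22.8) and the mesenchymal mitogen *Pdgfa* 4.53-fold (2.33). *Vegfa* was 1.72-fold higher over all marker-positive cells (1.51 to 1.95) and 1.09-fold (0.92 to 1.28) without the 3 deep cells. *Vegfa* in the AT1-only cells reached 1628 CPM (515 CPM without the 3 deep cells), 3.90-fold (3.26 to 4.65) the endothelial-gate level of 417 CPM, with 109 of its 134 UMIs in the 3 deep cells. Of the 15 ligands listed, 7 passed the minimum and 4 were at least 2-fold higher, beside the same 4.07%. Without the 3 deep cells *Sema3e* and *Bdnf* were left with 20 and 10 UMIs, below the minimum, where 2.79% of all genes tested were at least 2-fold higher.

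Basement membrane genes split by chain. *Col4a3* and *Col4a4*, the collagen IV chains of the alveolar and glomerular basement membranes, were 68.1-fold (40.8 to 119) and 46.2-fold (28.6 to 77.1) higher than in other cells, and 25.0-fold and 14.5-fold without the 3 deep cells. The chains *Col4a1* and *Col4a2*, made by endothelium and stroma, were at 0.77-fold and 0.78-fold. The laminin chain *Lama3* (23 UMIs, ratio 38.6, or 21.9 without the deep cells) was also higher but stood below the 30 UMI minimum.

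Of 16 regulators listed for AT1 cells 6 passed the minimum, and 3 of these, *Hopx*, *Tead1* and *Nkx2-1*, were at least 2-fold higher, beside 4.07% of all genes tested. Without the 3 deep cells *Nkx2-1* was left with 10 UMIs, below the minimum, and the share of all genes was 2.79%. *Nkx2-1*, a factor of lung epithelium, gave 31 UMIs (ratio 12.7, or 4.46 without the 3 deep cells), the pioneer factor *Foxa2*, below the minimum, 20 UMIs (18.7, or 6.09) and *Tead1* 87 UMIs (5.69, 4.41 to 7.28). The YAP and TAZ genes *Yap1* and *Wwtr1* were at 1.58-fold and 1.13-fold. Keratins of simple epithelia were among the genes with higher levels, *Krt7* 14.7-fold (9.75), *Krt19* 18.1-fold (10.8) and *Krt8* 7.33-fold (4.47). *Krt18* had 21 UMIs in the 3 deep cells and 10 in the others, where its ratio was 1.72 (0.80 to 3.30). The other genes of the top 20 were *Cyp2b10*, a cytochrome P450 (107-fold, or 52.5), *Sec14l3*, a lipid-binding protein (39.0), *Mal2*, an apical transport protein (40.2), *Rab11fip1* (57.4, or 27.4), the myosin heavy chain *Myh14* (33.2) and *Wwc1* (29.1). The most abundant transcripts of the 104 cells were not AT1 genes apart from *Hopx*. They were *Gm42418*, *Malat1*, *Tmsb4x*, *Actb*, *Fth1*, *Tpt1*, *Jun*, *Hopx*, *Itm2b* and *Ier3*.

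Levels of these genes were higher in the AT1-only cells, a class taken after the mixture with other gates had been seen. Of 390 genes with at least 30 UMIs in them, 29.0% were at least 2-fold higher than in other kept cells and 5.13% at most 0.5-fold, and the 21 AT1 genes that passed this minimum were at least 2-fold higher, with a median of 59.8. The minimum was taken in the AT1-only cells themselves, so it was passed through the group where these genes are high, and their count is a description. Without the 3 deep cells 10 AT1 genes passed it, with a median of 23.9, where 31.5% of 232 genes were at least 2-fold higher and 3.02% at most 0.5-fold. *Ager* stood at 9439 CPM there (5650 CPM without the 3 deep cells) against 562 CPM in the AT1/endothelial cells and 14.6 CPM in the endothelial gate. *Hopx* stood at 8941, 1263 and 548 CPM, and *Sec14l3* at 1810, 256 and 6.63 CPM. *Emp2* and *Clic5*, which endothelium also expresses, differed less, at 3997, 1775 and 1138 CPM and at 3134, 1438 and 1230 CPM.

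**Figure D3:**
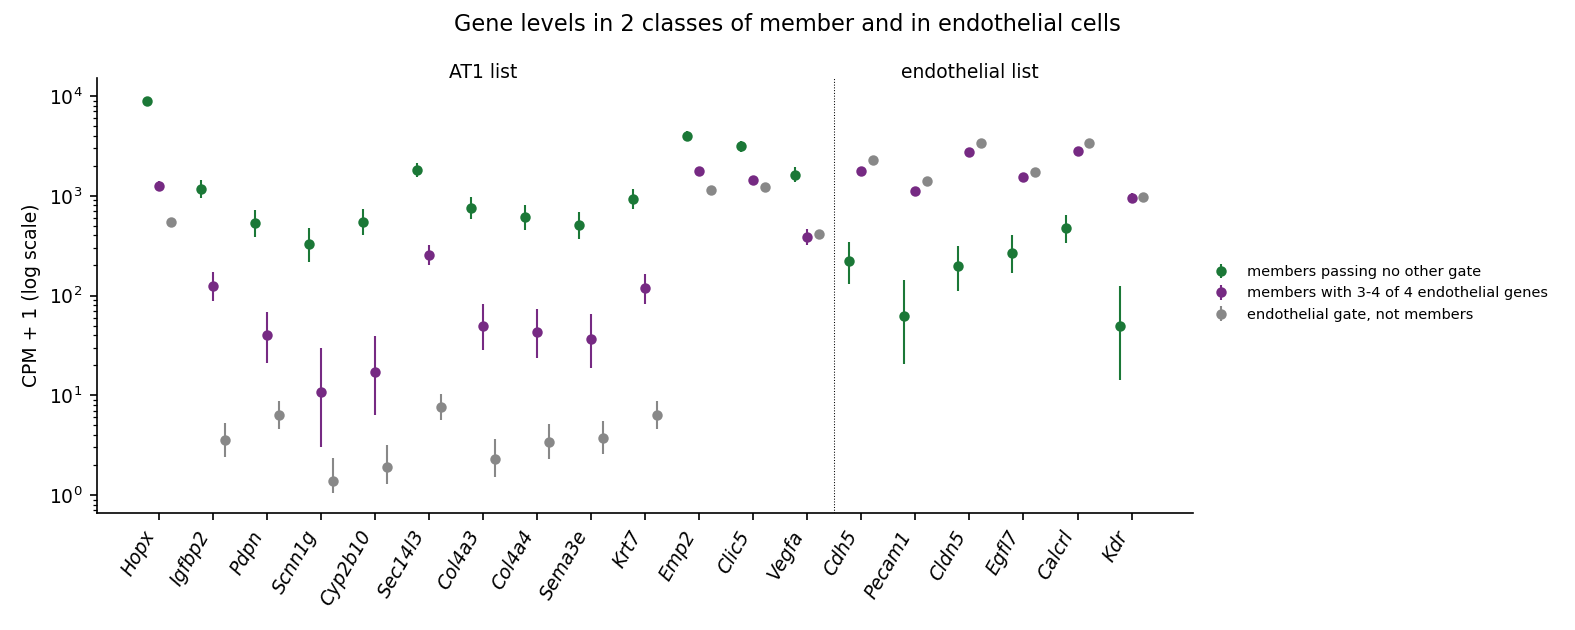
Points give the level of each gene (y axis, CPM + 1, log scale) in the 43 AT1-only cells (green), the 55 AT1/endothelial cells (purple) and the 1372 endothelial-gate cells (grey), with exact Poisson 95% intervals. For most AT1 genes purple lies between green and grey, as for *Hopx* at 8941, 1263 and 548 CPM, while for endothelial genes purple lies near grey and green far below.

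Endothelial RNA was present in the marker-positive cells beside AT1 RNA. Over all 104 cells the 24 endothelial genes summed to 8183 UMIs, 19506 CPM or 62.8% (61.4 to 64.2) of the endothelial-gate level, against 7.74% in the fibroblast gate, 6.01% in the leukocyte gate and 0.907% in the AT2 gate. The value was 59.8% (58.3 to 61.3) in normoxia and 72.5% (68.9 to 76.2) in hypoxia. It depended on the marker rule, since the cells with at least 3 rule markers carried 49.997% in normoxia (46 cells) and 9.66% (6.47 to 13.9) in hypoxia (6 cells). The AT1-only cells carried 12.2% (10.9 to 13.6), at 3790 CPM against 31052 CPM in the endothelial gate. The 3 deep cells lowered this share, since without them the class stood at 5650 CPM. The marker evidence was thin in part of the cells, since 30 of the 104 had a single UMI of every rule marker they carried, among them 22 of the 55 AT1/endothelial cells, 7 of the 43 AT1-only cells and 28 of the 52 cells with 2 markers. Whether endothelial RNA entered these droplets from a second cell or from free RNA was not tested. Cells with none of the 4 gate genes carried 2.47% and cells with 1 or 2 of them 15.3%, and both had high AT1 levels, 25933 CPM in 21 cells and 27491 CPM in 28 cells. The 3 deep cells are among them and carried much of these levels. They gave 637 of the 1320 AT1 UMIs of the 21 cells, and 474 and 570 of the 1664 of the 28 cells.

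Endothelial genes outside the gate stood in the AT1/endothelial cells at 0.97-fold (0.86 to 1.09) of their endothelial-gate level for the VEGF receptor *Kdr* and at 0.83-fold for *Calcrl*. The 4 gate genes define both classes, so their levels are a description. *Cdh5*, the junctional cadherin of endothelium, gave 1785 CPM against 2268 CPM in the endothelial gate, a ratio of 0.79 (0.72 to 0.86), and *Pecam1* 1104 against 1394 CPM. *Cldn5* stood at 0.80-fold and *Egfl7* at 0.89-fold. The same cells had 38.6-fold (29.4 to 51.0) more *Ager*, 47.8-fold (25.3 to 95.6) more *Igfbp2* and 38.7-fold (25.8 to 59.1) more *Sec14l3* than the endothelial gate. *Ager* and the other rule markers were fixed by the rule, while *Igfbp2* and *Sec14l3* were not. In the AT1-only cells *Cdh5* was at 219 CPM, *Pecam1* at 60.7 CPM and *Kdr* at 48.6 CPM, from 18, 5 and 4 UMIs, and without the 3 deep cells at 309, 103 and 82.5 CPM. *Epas1*, which encodes HIF2α, stood at 1020 CPM in the AT1-only cells (1608 CPM without the 3 deep cells), 2714 CPM in the AT1/endothelial cells and 2663 CPM in the endothelial gate.

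The endothelial transcripts included both kinds of capillary cell. Aerocytes are the large capillary cells apposed to AT1 cells, and general capillary cells are their progenitors. The ratio of summed aerocyte to summed general capillary UMIs was 0.244 (0.217 to 0.273) in the normoxia marker-positive cells and 0.184 (0.179 to 0.190) in the normoxia endothelial gate. In hypoxia the order was the other way, 0.174 (0.127 to 0.234) from 52 and 299 UMIs against 0.247 (0.237 to 0.258). This order did not hold in the marker-positive cells without an *Sftpc* UMI, where the ratio was 0.189 (0.159 to 0.224) in normoxia, near the gate, and 0.374 (0.249 to 0.550) in hypoxia, at 11 cells. Without the deepest cell the hypoxia ratio was 0.192 (0.134 to 0.268), which reaches the gate. The AT1-only cells lay at 0.069 (0.018 to 0.19) and 0.067 (0.0016 to 0.43) from 4 and 1 aerocyte UMIs, intervals that reach the gate. The normoxia fibroblast gate had 0.315 (0.263 to 0.375), higher than the marker-positive cells.

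**Figure D4:**
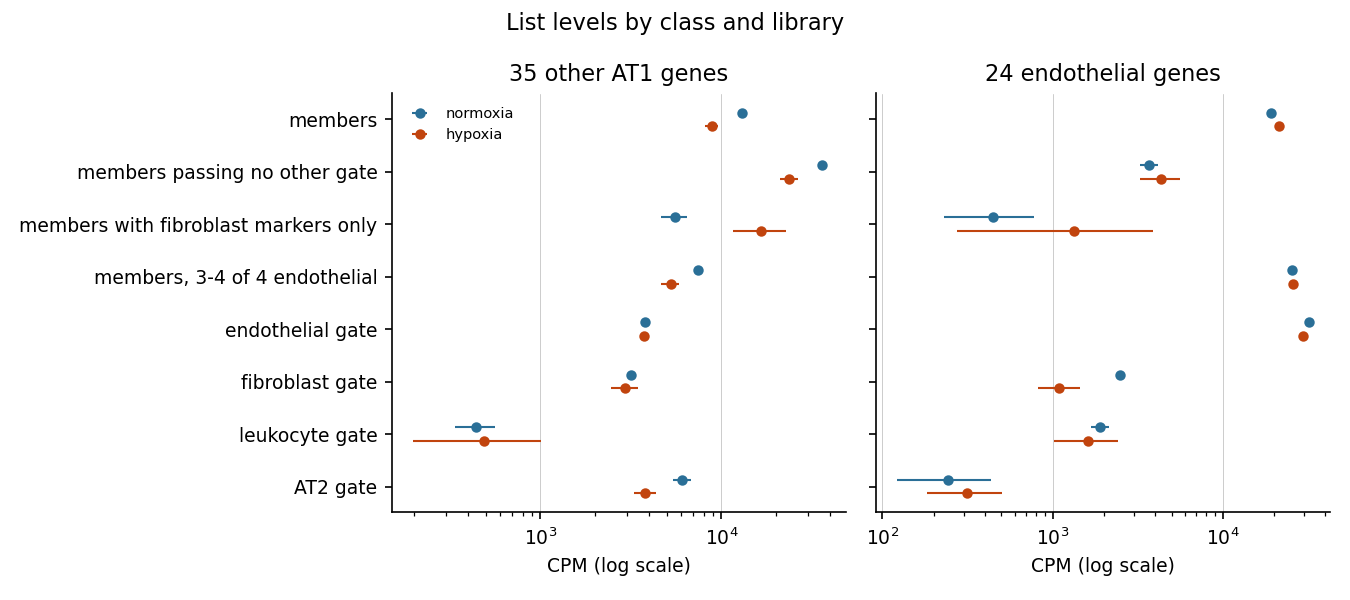
Points give the summed level of 35 other AT1 genes (left) and 24 endothelial genes (right) in each class of cell (x axis, CPM, log scale), blue for normoxia and orange for hypoxia, with exact Poisson 95% intervals. Marker-positive cells passing no other gate lie at 35869 and 23772 CPM of AT1 genes, and those with 3 or 4 endothelial genes at 25411 and 25882 CPM of endothelial genes, near the endothelial gate.

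Clustering without the 5 rule genes spread the marker-positive cells over many clusters. At resolution 1 the 2037 cells formed 18 clusters, and 12 of them held marker-positive cells. Cluster 7, with 44 cells (36 from normoxia and 8 from hypoxia), held 38 of the 104 (36.5%), of which 28 were AT1-only and 10 AT1/endothelial. It had 31104 CPM of the other AT1 genes and 4841 CPM of endothelial genes, and 20 of the 35 AT1 genes had a UMI in at least 25% of its cells. Its leading genes included *Scnn1b*, *Scnn1g*, *Cyp2b10* and *Bdnf* but also *Rsph1*, *Nme5* and *Dynlrb2*, genes of motile cilia, although only 1 of its cells, not a marker-positive one, had 3 or more of 4 ciliary genes. Cluster 1, an endothelial cluster of 375 cells at 31490 CPM of endothelial genes, held 22 of the 104, of which 21 were AT1/endothelial. Cluster 8, led by *Msln* and *Fabp3*, held 14, of which 9 were AT1-only. At resolution 2 a cluster of 66 cells held 40 of the 104. A second cluster there, cluster 15, had 28 cells, all from normoxia, with 12 AT1/endothelial cells among them, 24894 CPM of endothelial genes and *Wwc1*, *Igfbp2*, *Spock2* and *Col4a4* among its leading genes.

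Hypoxia and normoxia were compared within the marker-positive cells, with their depth and *Malat1* beside them. The 84 normoxia cells had a median of 2469.5 UMIs and 3.40% mitochondrial transcripts, and the 20 hypoxia cells 2109 UMIs and 0.867%. Over all kept cells the mitochondrial medians were 2.83% and 1.06%, so this gap was shared by the libraries. *Malat1* was under 1% in 65.5% of the normoxia and 80.0% of the hypoxia marker-positive cells. Their part in the values that follow was not tested.

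The summed AT1 level was lower in hypoxia over the marker-positive cells, though not under every choice of cells. The 35 other AT1 genes stood at 13019 CPM in the 84 normoxia cells against 8825 CPM in the 20 hypoxia cells (ratio 0.68, 0.62 to 0.74), while in the other kept cells they stood at 3573 and 3720 CPM. In normoxia the 3 deep cells, those with the most AT1 UMIs, supplied 37.2% of these UMIs, and in hypoxia the top 3 cells supplied 34.5%. With the top 3 left out of both libraries the ratio was 0.70 (0.63 to 0.77). With the 3 deep cells left out of normoxia alone it was 0.97 (0.89 to 1.06), a removal that can only move the ratio upward. With at least 3 rule markers it turned to 1.49 (1.32 to 1.67) and with no *Sftpc* UMI to 1.33 (1.19 to 1.47). The mean over cells of each cell's own level had a ratio of 1.01. Over the AT1/endothelial cells, which hold none of the 3 deep cells, the summed ratio was 0.70 (0.62 to 0.79), from 7472 CPM in normoxia and 5235 CPM in hypoxia. The endothelial gate held 3793 and 3734 CPM of the same genes. In the AT1/endothelial cells *Emp2* made 25.5% of the list in normoxia and *Clic5* 25.5% in hypoxia, genes that endothelium also expresses. The rule markers stood at 0.90 (0.69 to 1.17) in these cells, as a description. Over all AT1-only cells the summed ratio of the 35 genes was 0.66 (0.59 to 0.75). Among AT1-only cells under 1% *Malat1*, 32 from normoxia and 8 from hypoxia, the levels were 22797 and 23772 CPM, a ratio of 1.04 (0.91 to 1.19). As a share of each cell's UMIs, the AT1-only cells ran from 0% through a median of 1.77% to 5.98% in normoxia and from 0.114% through 2.38% to 5.22% in hypoxia, so the libraries overlapped over nearly the whole range.

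Gene by gene the AT1 list leaned to lower levels in hypoxia. Of 3917 genes with at least 20 UMIs over both libraries, 298 (7.61%) were at least 2-fold higher in hypoxia and 600 (15.3%) at most 0.5-fold, with a median ratio of 0.98. The 20 UMI minimum is passed more readily by the deeper normoxia library. With 1 UMI asked of each library 1624 genes were higher and 941 lower. That choice drops genes at 0 in either library, and 1 UMI is a higher CPM in the shallower hypoxia library. Its direction was thus set in part by depth, and it cannot decide the balance. Of 26 AT1 genes past the 20 UMI minimum, 11 were at most 0.5-fold and none at least 2-fold higher, with a median of 0.54. With the top 3 cells left out of both libraries these were 7 and none of 20, with a median of 0.65, where 7.38% of 3566 genes were at least 2-fold higher and 15.5% at most 0.5-fold. With the 3 deep cells left out of normoxia alone they were 3 and none of 21, with a median of 0.85, where 7.20% and 14.4% of 3624 genes were. Among AT1-only cells 12 of 23 were at most 0.5-fold, where 11.5% of 653 genes were at least 2-fold higher and 24.3% at most 0.5-fold. The 3 deep cells held 1681 of the 2497 normoxia AT1 UMIs of this class, and its count is not given without them. In the other kept cells 1 of 25 AT1 genes was at least 2-fold higher and 4 at most 0.5-fold, where 3.14% and 12.3% of 11551 genes were.

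*Hopx* gave 983 UMIs in normoxia and 170 in hypoxia (0.83, 0.70 to 0.97). Its ratio was 0.68 (0.54 to 0.86) with the top 3 cells left out of both libraries and 1.28 (1.07 to 1.52) with the 3 deep cells left out of normoxia alone, so its direction depended on this choice. *Pdpn*, the podoplanin of the apical membrane, gave 55 and 3 UMIs, 26 of the 55 in the deep cells. *Krt7* was at 0.97, and at 0.63 (0.24 to 1.40) without the top 3 of both, and *Mal2* at 1.03 and 1.09. *Krt19* was at 0 in hypoxia against 55 UMIs in normoxia, at least 3.84-fold lower with the hypoxia floor set at 3 counts, and against 30 UMIs without the deep cells. *Vegfa*, itself a hypoxia target, was at 229 and 32 UMIs (0.67, 0.45 to 0.97), with 109 of the 229 in the deep cells, and at 1.06 (0.67 to 1.62) without the top 3 of both.

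The rule markers are given for description, since they chose the cells. *Ager* gave 888 UMIs in normoxia, 503 of them in the 3 deep cells, and 95 in hypoxia, a ratio of 0.51. It was 0.43 (0.29 to 0.61) without the top 3 of both libraries and 1.06 (0.84 to 1.33) without the deep cells alone. *Aqp5* gave 134 UMIs, 102 of them in the deep cells, and 6 in hypoxia, and its ratio of 0.21 became 0.74 (0.22 to 1.90) without the top 3 of both. *Cldn18* stood at 0.84 and 1.09.

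Endothelial transcripts were 1.12-fold (1.06 to 1.18) higher in hypoxia, at 21355 against 19119 CPM. In hypoxia 3 cells supplied 56.5% of these UMIs, and without the deepest marker-positive cell of each library the ratio was 0.96. Without the 3 cells of each library with the most AT1 UMIs it was 1.09 (1.03 to 1.16) and without the 3 deep normoxia cells alone 1.01 (0.96 to 1.07), with at least 3 rule markers 0.18 (0.12 to 0.26) and with no *Sftpc* UMI 0.87 (0.80 to 0.95). Within the AT1/endothelial cells the levels were 25882 and 25411 CPM (1.02, 0.96 to 1.08).

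**Figure D5:**
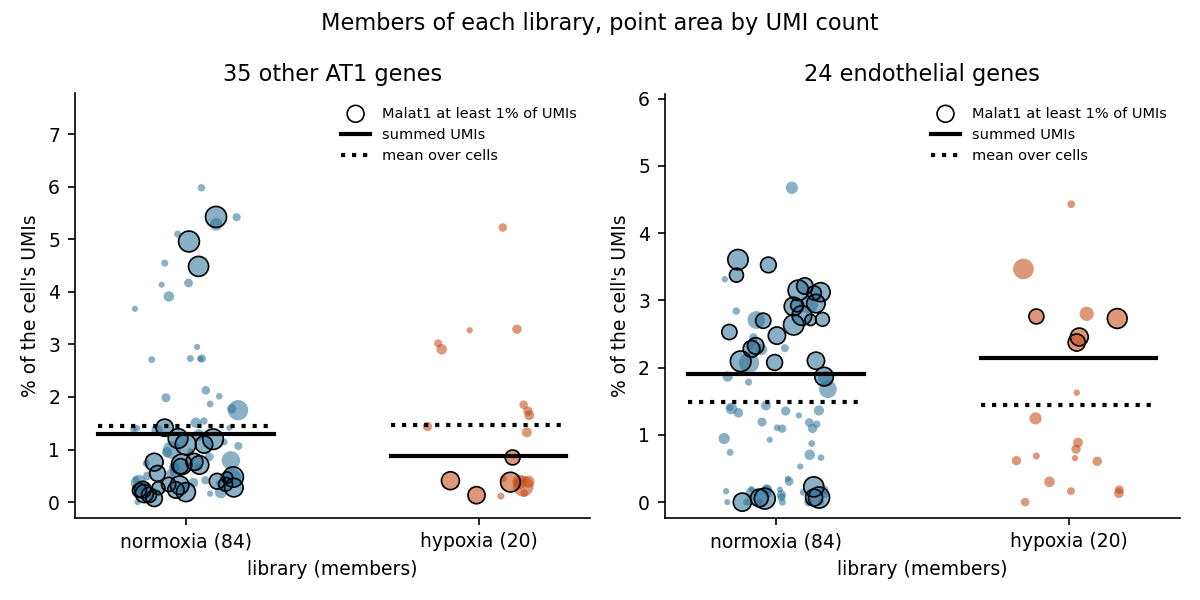
Each point is 1 marker-positive cell, with its UMIs of 35 other AT1 genes (left) or 24 endothelial genes (right) as % of its UMIs on the y axis, point area growing with its UMI count, and black rings where *Malat1* was at least 1% of UMIs. Solid lines give the level from summed UMIs and dotted lines the mean over cells, and for the AT1 genes the dotted lines lie at nearly the same height in both libraries while the solid line is lower in hypoxia.

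The genes that differed most between the libraries in the marker-positive cells lay in the same direction in the other cells. *Ntrk2*, a neurotrophin receptor, gave 42 UMIs in hypoxia and 3 in normoxia (66.9-fold, 21.4 to 337), and was 29.7-fold higher in the other kept cells. *Cdk19*, a Mediator kinase, was 27.1-fold (11.2 to 78.9) and 11.8-fold higher, and *Epha4*, an ephrin receptor, 9.85-fold and 2.02-fold. *Cd74*, *H2-DMa* and *Ciita*, genes of MHC class II presentation, were 7.08-fold, 12.7-fold and 11.9-fold higher, against 5.45-fold, 4.24-fold and 5.10-fold in the other cells. Of these UMIs 43 of 45 for *Ntrk2*, 37 of 40 for *Cdk19* and all 21 for *Ciita* lay in AT1/endothelial cells, and the AT1-only cells gave no *Epha4* UMI in hypoxia and 6 in normoxia. In hypoxia only 3 cells had a *Ciita* UMI, and 1 cell held 73.3% of the 15. The *Ciita* ratio had an interval of 4.38 to 37.6, which does not cover this concentration. *Ttc28*, *Sod3* and *Fxyd1* were at 0 in hypoxia, at least 6-fold, 4.40-fold and 3.84-fold lower, and *Apoe* and *Plvap* were at 0.097-fold and 0.13-fold. In the other kept cells these 5 genes stood at 0.70-fold, 0.24-fold, 0.24-fold, 0.26-fold and 0.18-fold. Markers of some other cell types, though not of all, were also lower in hypoxia in the marker-positive cells. The fibroblast list stood at 0.37-fold (0.29 to 0.47), the pericyte and smooth muscle list at 0.22-fold and the lymphatic list at 0.27-fold. The pericyte value came from 5 UMIs in hypoxia and 111 in normoxia. *Lyve1* gave all 143 normoxia UMIs of the lymphatic list and 6 of the 8 in hypoxia, so that value is largely of 1 gene. *Prox1*, *Mmrn1* and *Reln* were at 0 in these cells. In the other kept cells these lists stood at 0.21-fold, 0.20-fold and 0.37-fold.

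Collagen IV chains of endothelium and stroma were higher in hypoxia. *Col4a1* was 3.20-fold (2.57 to 3.97) and *Col4a2* 4.48-fold (3.33 to 6.03) higher in hypoxia over the marker-positive cells, and 2.99-fold and 3.18-fold in the other cells. In the AT1-only cells *Col4a1* gave 7 UMIs in hypoxia and 34 in normoxia, a ratio of 1.13 with an interval of 0.42 to 2.59 (1.97, 0.64 to 5.74, without the 3 deep cells). *Col4a3*, the AT1 chain, gave 6 UMIs in hypoxia and 71 in normoxia over all marker-positive cells, 51 of the 71 in the deep cells (0.40 over all cells and 0.94, 0.23 to 2.81, without the top 3 cells of both libraries). The list of 16 basement membrane genes was at 1.67-fold (1.45 to 1.91) over all marker-positive cells, 2.45-fold in the AT1/endothelial cells and 0.46-fold (0.29 to 0.69) in the AT1-only cells, where it became 1.04-fold (0.63 to 1.66) with the deep cells left out of normoxia alone.

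Known hypoxia targets as a list had a summed ratio whose interval included 1 over all marker-positive cells. Its 18 genes stood at 3949 CPM in normoxia against 3497 CPM in hypoxia (0.89, 0.77 to 1.01), and of 10 measured 2 were at least 2-fold higher and 1 at most 0.5-fold, beside 7.61% and 15.3% of all genes. The median ratio of these 10 genes was 1.42, on the other side of 1 from the summed level. The list stood at 0.82-fold (0.70 to 0.96) in the AT1/endothelial cells and 1.01-fold (0.74 to 1.37) in the AT1-only cells. In the other kept cells it stood at 1.11-fold (1.09 to 1.14). Glycolytic enzymes differed among themselves. *Aldoa* was 2.10-fold (1.41 to 3.08) higher in hypoxia and *Ldha* 1.89-fold (1.01 to 3.38), or 1.65-fold (0.83 to 3.09) without the top 3 cells of both libraries, while *Eno1* stood at 1.19 (0.44 to 2.80) and *Pgk1*, with 1 UMI in hypoxia and 23 in normoxia, at 0.21 (0.0050 to 1.28). In the other kept cells these 4 stood at 2.87, 2.98, 1.42 and 1.19. *Aldoa* in the AT1-only cells gave 14 and 27 UMIs (2.84-fold, 1.38 to 5.61). *Epas1* was at 0.63-fold (0.51 to 0.77) over the marker-positive cells and at 15 and 69 UMIs (1.19, 0.63 to 2.10) in the AT1-only cells, or 0.67 (0.35 to 1.19) without the 3 deep cells.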

How the data were processed

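Counts were UMIs per gene and cell that the authors deposited as raw matrices, made with Cell Ranger (6.1.2 per the file headers) on mm10, with Seurat also named in the labels. Cells were kept at 200 to 4000 genes and at most 5% mitochondrial UMIs. UMIs were summed per class and scaled to 1000000 (CPM). Poisson, ratio and share intervals are exact at 95%, and a count of 0 was given a floor of 3 counts. Shares of cells with a UMI were taken after thinning to 1000 UMIs. Clustering used scanpy 1.11.5 without the 5 rule genes. Doublet calls were not applied. Scrublet called 3 of 1348 normoxia and 0 of 689 hypoxia cells, 1 of them among the 44 normoxia AT1/endothelial cells, and its detection rate was not tested. Interval code was tested on simulated data (scipy 1.17.1). Gene names follow fixed lists of 308 genes (306 in the files), the 20 genes with the highest lower bound against other cells, the 10 most abundant, and the 6 each way between libraries. The members and lists were chosen with earlier results of these data known, and the AT1-only class, the *Malat1* limit, the values without the 3 deep or the top 3 cells and cluster resolution 2 after seeing the values.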

Additional observations from a re-analysis of the deposited data

Results flagged for a closer look

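Lists whose hypoxia to normoxia ratio lay on opposite sides of 1 in marker-positive and other kept cells, with both intervals excluding 1, are given here beside the aerocyte ratio, whose order differed between the 2 libraries, and with 1 library per condition these differences were not tested. The aerocyte to general capillary ratio of the marker-positive cells was 1.32 times that of the endothelial gate in normoxia and 0.703 times in hypoxia. With no *Sftpc* UMI allowed the ratio was 0.189 in normoxia and 0.374 in hypoxia against 0.184 and 0.247 in the gate, so the opposite directions did not hold. From normoxia to hypoxia the rule markers stood at 0.567 in the marker-positive cells and 1.46 in the other kept cells, and the other AT1 genes at 0.678 and 1.04. The rule used its markers to divide these cells, so their values are a description. With the 3 cells richest in AT1 UMIs left out of both libraries the marker-positive values were 0.644 and 0.698, and with the 3 deep AT1-only cells left out of normoxia alone 1.15 (0.983 to 1.34) and 0.975. The list of 10 aerocyte genes stood at 0.758 and 1.07, and the list of 14 receptors of AT1 ligands at 0.813 and 1.03. The endothelial gate alone did not follow the other kept cells throughout. There the aerocyte list stood at 0.895 (0.872 to 0.919) and the rule markers at 0.710 (0.498 to 0.997), both below 1. The other AT1 genes stood there at 0.984 (0.957 to 1.01) and the receptors at 1.04 (1.01 to 1.07).

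Cells outside the comparisons also carried the AT1 signal. The filters removed 88 normoxia and 7 hypoxia cells that met the marker rule. The 74 normoxia cells over the mitochondrial limit had 10942 CPM of the other AT1 genes and 4388 CPM of endothelial genes, and 50 of them passed no other gate, 7 of these with at least 1% *Malat1*. The 14 normoxia cells removed only for having over 4000 genes had a median of 17195 UMIs, 20567 CPM of AT1 genes and 9500 CPM of endothelial genes, and 10 of them had 3 or 4 of the endothelial gate genes. The 7 hypoxia cells had 6820 CPM of AT1 genes and 16076 CPM of endothelial genes.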

How the results depend on the processing

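Of 126 values recomputed under alternative settings, 54 moved within their counting interval or, for numbers of genes, by at most 1.5 times, 62 moved further and 10 turned direction. The causes were not tested except where the setting names the cells removed. No paired analysis was possible because there is 1 library for each oxygen level.

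Requiring 3 rule markers gave shares of 3.41% in normoxia and 0.871% in hypoxia, AT1 ratios to other cells of 5.74 and 8.20, endothelial levels of 49.997% and 9.66% of the gate, an aerocyte ratio of 0.299 in normoxia, and hypoxia to normoxia ratios turned to 1.49 for AT1 genes and 0.178 for endothelial genes. Allowing no *Sftpc* UMI gave shares of 3.93% and 1.60%, AT1 ratios of 2.37 and 3.38, endothelial levels of 62.3% and 58.8%, aerocyte ratios of 0.189 and 0.374, and turned ratios of 1.33 and 0.873. A limit of 6000 genes gave in normoxia 4.35, 49.2% and 0.216, and between libraries 0.569 and 1.36. A mitochondrial limit of 10% gave in normoxia 3.88 and 53.3%, and between libraries 0.619 and 1.25. Without cells under 1000 UMIs the normoxia endothelial level was 61.4%. Without the deepest cell of each library the AT1 ratios to other cells were 3.24 and 2.66, the endothelial levels 61.8% and 64.1%, the AT1 level of cells with 0 of 4 endothelial genes 17444 CPM in place of 25933, and the ratios between libraries 0.855 for AT1 and a turned 0.956 for endothelial genes. Means over cells gave AT1 ratios of 4.16 and 4.11, endothelial levels of 46.4% and 51.4%, AT1 levels of 19236 CPM with 1 or 2 and 8190 CPM with 3 or 4 endothelial genes, and turned ratios of 1.01 and 0.969. Cells with no endothelial gate transcript gave 7.15 and 8.31, and a turned 1.21 between libraries. AT1-only cells gave 10.0 and 6.39, and a mean over cells of 1.02 between libraries, turned. Cells under 1% *Malat1* gave 4.00 and 3.36, endothelial levels of 49.6% and 60.7%, and 0.875 between libraries for AT1 genes, and the AT1-only cells among them 6.38 and 6.39 and a turned 1.04. Without the 3 deep AT1-only cells the normoxia AT1 ratio was 2.53 and the endothelial level 65.9%, and the ratios between libraries 0.975 and 1.01, while leaving out the 3 cells of each library with the most AT1 UMIs gave 0.698 and 1.09. Genes past 2-fold between libraries numbered 298 higher and 600 lower in hypoxia, 59 and 180 with at least 50 UMIs, and 1624 and 941 with 1 UMI in each library. The last choice counts 1 UMI as a higher level in the shallower hypoxia library, so its direction was set in part by depth.

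In the hypoxia marker-positive cells 1 UMI is 13.8 CPM and the floor of 3 counts 41.3 CPM.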

Other observations

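The AT1-only cells had a lower summed level of immediate early and heat shock genes, which rise during tissue dissociation, though not every gene went this way. A list of 20 such genes stood at 5430 CPM in them, 28803 CPM in the AT1/endothelial cells, 22293 CPM in the endothelial gate and 29464 CPM in the fibroblast gate. Among the genes that were lower, *Fos* stood in the AT1-only cells at 158 CPM, *Jun* at 559 CPM and *Hspa1a* at 24.3 CPM from 2 UMIs. In the endothelial gate these genes stood at 1101, 3828 and 908 CPM. The most abundant gene of the list in the AT1-only cells was another heat shock gene, *Hsp90aa1*. It gave 95 of the 447 UMIs of the list there (1154 CPM). The list was lower in hypoxia in the marker-positive cells (0.570, 0.534 to 0.607) and in the other kept cells (0.432, 0.426 to 0.437).

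The club cell transcript *Scgb1a1* gave 61 UMIs (176 CPM) in the normoxia and 34 UMIs (468 CPM) in the hypoxia marker-positive cells, below the 412 and 2088 CPM of the other kept cells. Caveolar genes, which AT1 cells and endothelium share, stood at 5782 CPM in the AT1-only cells and 5637 CPM in the endothelial gate. The richest AT1-only cell held 25% of the caveolar UMIs of its class, so the pooled level leaned on few cells. The libraries differed in order. In normoxia the levels were 6134 CPM (5566 to 6744) in the AT1-only cells and 5597 CPM in the endothelial gate. In hypoxia they were 3857 CPM (2853 to 5099) and 5707 CPM. *Tmsb4x*, an actin-binding peptide, stood at 14918 CPM in the AT1-only cells, 5745 CPM in the AT1/endothelial cells and 3307 CPM in the endothelial gate. *Tppp3*, counted here with airway genes, was 7.33-fold (5.46 to 9.67) higher in the AT1-only cells than in the endothelial gate, while *Foxj1* and *Ccdc113* were at 0 in every marker-positive cell.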
